A study of Homo sapiens with 9 samples.

Results

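The 3 Control libraries of a 9-library RNA sequencing series were taken by their group label to describe the transcriptome of cells in which neither targeted gene was knocked down. The cells are labelled HT29, an established line from a human colorectal adenocarcinoma. All 9 libraries came from puromycin-selected cells grown in the same medium with fetal bovine serum; 3 were labelled Control, 3 carried a stable lentiviral knockdown of DNMT1 and 3 a stable lentiviral knockdown of DNMT3B. What the Control vector carried, and whether a group was 1 clone, the labels do not say. Libraries were made from total RNA after removal of rRNA, so RNAs without a poly(A) tail were counted too. By its title, the study concerns proteasome inhibitors, DNA methylation and the 2 targeted enzymes in this cancer.

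Colorectal identity rests on a small set of transcription factors. CDX2 and CDX1 are the homeobox factors that specify intestine, and HNF4A drives the genes of the absorptive cell. Mature colonocytes carry a brush border held together by villin and protocadherins and display glycoproteins such as carcinoembryonic antigen (CEACAM5), while goblet cells secrete the mucin MUC2 with trefoil peptides. HT29 cells are known to make carcinoembryonic antigen and villin. In colorectal tumours many CpG-rich promoters, stretches in which the dinucleotide CG has been kept, carry DNA methylation and their genes are silent.

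A level is given in CPM, the count of a symbol divided by the column total and multiplied by 1000000. A symbol was called expressed at 1 CPM or more in each of the 3 Control libraries, high at 100 CPM or more in each, absent below 0.1 CPM in each, and low otherwise. Genes are ordered against each other only by TPM, in which each count is first divided by the exon length of the gene. The Control libraries held 33.7, 26.9 and 31.3 M counts (M is 1e6; mean 30.6 ± 3.42, SD, n = 3), so 3 counts, the limit that a count of 0 allows, equalled 0.0891, 0.111 and 0.0958 CPM, for counting error only. Libraries differed by more than counting noise (the chi-square statistic over its degrees of freedom was 2.36 to 2.67 in the 3 Control pairs), so none was treated as a repeat of another. The biological coefficient of variation of the Control libraries was 2.81%, and the median CV was 8.46% between 1 and 10 CPM, 3.56% between 10 and 100 CPM and 2.42% above. The knockdowns can be read from the targeted genes: DNMT1 stood at 446, 467 and 455 CPM in Control and at 249, 250.1 and 258 CPM in DNMT1 knockdown. DNMT3B stood at 60.7, 60.2 and 62.3 CPM in Control and at 33.0, 27.6 and 30.9 CPM in DNMT3B knockdown. In neither case did the groups overlap.

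Of 25886 symbols, 14339 (55.4%) were expressed in Control, 2595 of them high (10% of all symbols), and 7135 (27.6%) were absent. The 4412 low symbols lay between, and 4535 symbols had no count in any Control library. Among 19314 protein-coding genes, 12810 (66.3%) were expressed and 3940 (20.4%) absent. Of 2125 lincRNA genes, 247 were expressed, and of 1406 antisense genes 456, although reads of an antisense gene and its partner cannot be told apart because the use of strand in counting is not given. The 45S rRNA precursor RNA45SN1 took the largest mean share of counts (5788 ± 383 CPM, SD, n = 3). FASN, the fatty acid synthase, was at 4175, 4136 and 4266 CPM. SCD, which desaturates the fatty acids that FASN makes, had 3376, 3356 and 3332 CPM. FAT1, a giant atypical cadherin, had 4178 ± 96.3 CPM, a share of counts that did not differ from that of FASN beyond its spread, and the translation factor EEF2 3439 ± 51.0 CPM. Per length, the order was led by small structural RNAs, with RN7SK, a regulator of transcription elongation, at 20830 ± 1753 TPM and RN7SL1, the RNA of the signal recognition particle, at 15810 ± 1296 TPM. The protein-coding gene next in that order was TMSB10, an actin-binding peptide, at 4563 ± 294 TPM, above ACTG1 (4323 ± 26.0 TPM) by less than its own SD. GAPDH followed at 3876 ± 27.8 TPM.

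**Figure D1:**
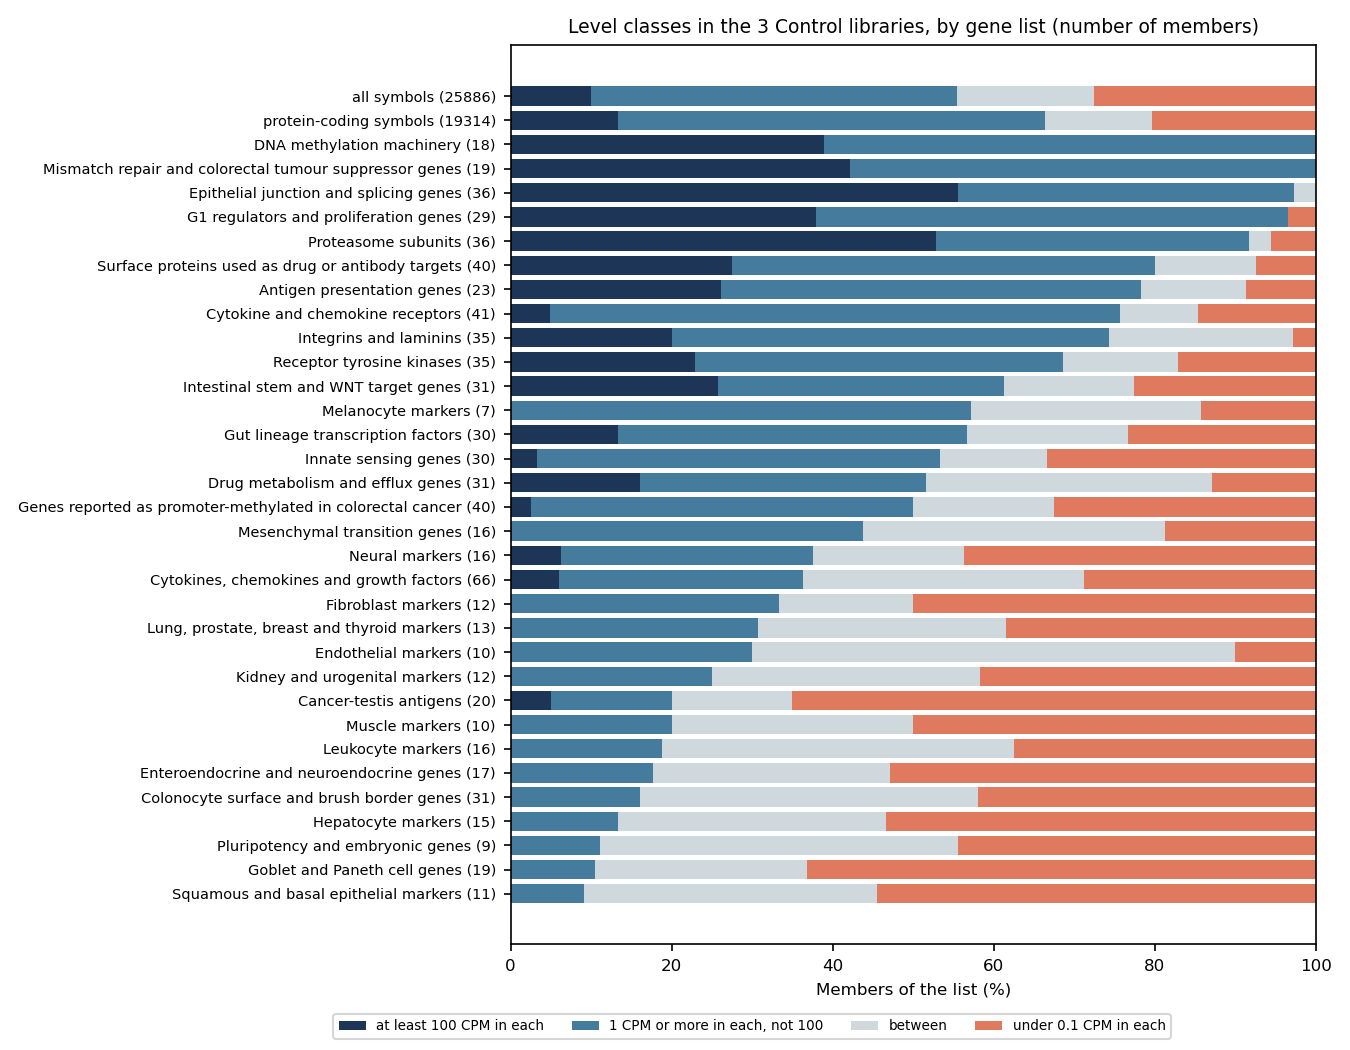
Share of the members of each gene list in 4 level classes in the 3 Control libraries (x axis, % of members; the number of members stands beside each list name). Epithelial, DNA methylation and mismatch repair lists are almost entirely blue, whereas over 40% of the colonocyte, goblet, hepatocyte and squamous lists is red, compared with 27.6% of all symbols.

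The general epithelial programme was present nearly in full. Of 36 genes for junctions, simple keratins, epithelial splicing and membrane proteases, 35 were expressed, 20 of them high, and none was absent (CLDN1 was without Control replicate 2). The expressed share was 97.2%, against 66.3% of protein-coding genes. The list had a median of 129 CPM, compared with 2.52 CPM over all symbols. EPCAM, the epithelial adhesion molecule, was at 283.9, 283.9 and 284.5 CPM. CDH1, which encodes E-cadherin of adherens junctions, had 146 ± 3.14 CPM, and P-cadherin (CDH3) at 210, 211 and 208 CPM. The splicing regulator ESRP1 was at 237, 227 and 224 CPM, and GRHL2, a factor that maintains epithelial junction genes, at 134, 130.5 and 131 CPM. Each of these genes varied by only a few percent between libraries. The exception in the list was CLDN1, a tight junction claudin, at 0.0891, 0.149 and 0.0639 CPM, although the claudins CLDN7 (127 ± 2.44 CPM) and CLDN4 (112 ± 4.19 CPM) were high.

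The keratins with the highest levels were those of a simple epithelium, but others were expressed as well. KRT8, the type II keratin of simple epithelia, was at 992, 976 and 1032 CPM, and its partner KRT18 at 476, 464 and 484 CPM. KRT19 had 940.5 ± 23.3 TPM, above KRT18 (643 ± 10.9 TPM) and KRT8 (633 ± 13.5 TPM), and the last pair did not differ beyond their spread. Of 55 keratin genes 11 were expressed and 30 absent, whereas 66.3% of protein-coding genes were expressed and 20.4% absent. The expressed keratins included KRT23 at 17.3 ± 0.811 CPM. KRT20, the keratin of differentiated intestinal cells, was at 1.19, 0.966 and 0.926 CPM, so it straddled the limit for expressed genes. KRT7 stood at 1.37 ± 0.0739 CPM, and the squamous keratins KRT5, KRT1 and KRT4 were absent. KRT10, a keratin of the same squamous list, was expressed at a mean of 14.96 CPM. The hair keratins KRT32 and KRT35 were expressed too, at means of 2.62 and 1.52 CPM. Keratin genes have processed copies elsewhere in the genome, and how reads shared between copies were assigned is not given.

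Of 30 gut lineage transcription factors, 17 (56.7%) were expressed, 4 of them high, and 7 (23.3%) were absent, shares near those of all symbols. Among protein-coding genes, more were expressed (66.3%) and fewer absent (20.4%). The list had a median of 5.78 CPM. CDX2 was at 37.6, 39.4 and 37.2 CPM. TCF7L2, the factor through which WNT signals reach the intestinal genome, was at 426, 464 and 434 CPM. Both factors were well above the floor in all 3 libraries. High levels were also seen for KLF5 (126 ± 1.83 CPM) and SOX9 (114 ± 2.13 CPM), factors of proliferating crypt cells, and for the nuclear receptor NR5A2 (122 ± 1.81 CPM), which acts in crypt renewal. ELF3, an epithelial ETS factor, had 49.2 ± 0.995 CPM, the vitamin D receptor VDR 38.6 ± 1.89 CPM, and MYB, a factor of progenitor cells, 34.7 ± 2.09 CPM. In TPM, TCF7L2 led (286 ± 13.5), followed by KLF5 (141 ± 3.20), SOX9 (127 ± 1.16), NR5A2 (70.2 ± 1.53), HES1 (54.2 ± 2.43) and CDX2 (40.2 ± 1.45). ELF3 (29.8 ± 0.322 TPM), VDR (29.7 ± 1.61 TPM) and KLF4 (29.2 ± 1.18 TPM) did not differ beyond their spread.

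Other gut factors ranged from a few CPM to no count. HNF4A was expressed at 3.77, 3.19 and 3.99 CPM and its paralogue HNF4G at 7.78, 7.69 and 7.60 CPM. The ETS factor EHF was at 0.208, 0.111 and 0.0639 CPM. In bulk RNA, fewer cells that express a gene and less RNA per cell cannot be told apart, so these values may come from a few cells or from all. CDX1 (GRCh38 chr5:150166795-150184558, plus strand) had no count in any Control library, and neither had GATA4, GATA5, FOXA2, an endoderm pioneer factor, or MAF. ASCL2, the stem cell factor of the crypt, had 3 counts over the 3 libraries and PROX1 had 5. GATA6, the expressed gut member of its family, was at 11.3, 8.21 and 10.7 CPM, and its CV of 16.2% was among the 5 largest where the mean reached 10 CPM, beside HES6 at 17.9%, BSCL2 at 16.4%, SIVA1 at 16.3% and LOC122526782 at 15.5%. The secretory factors ATOH1 (0.287 ± 0.0760 CPM) and SPDEF (0.301 ± 0.0802 CPM) were low.

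**Figure D2:**
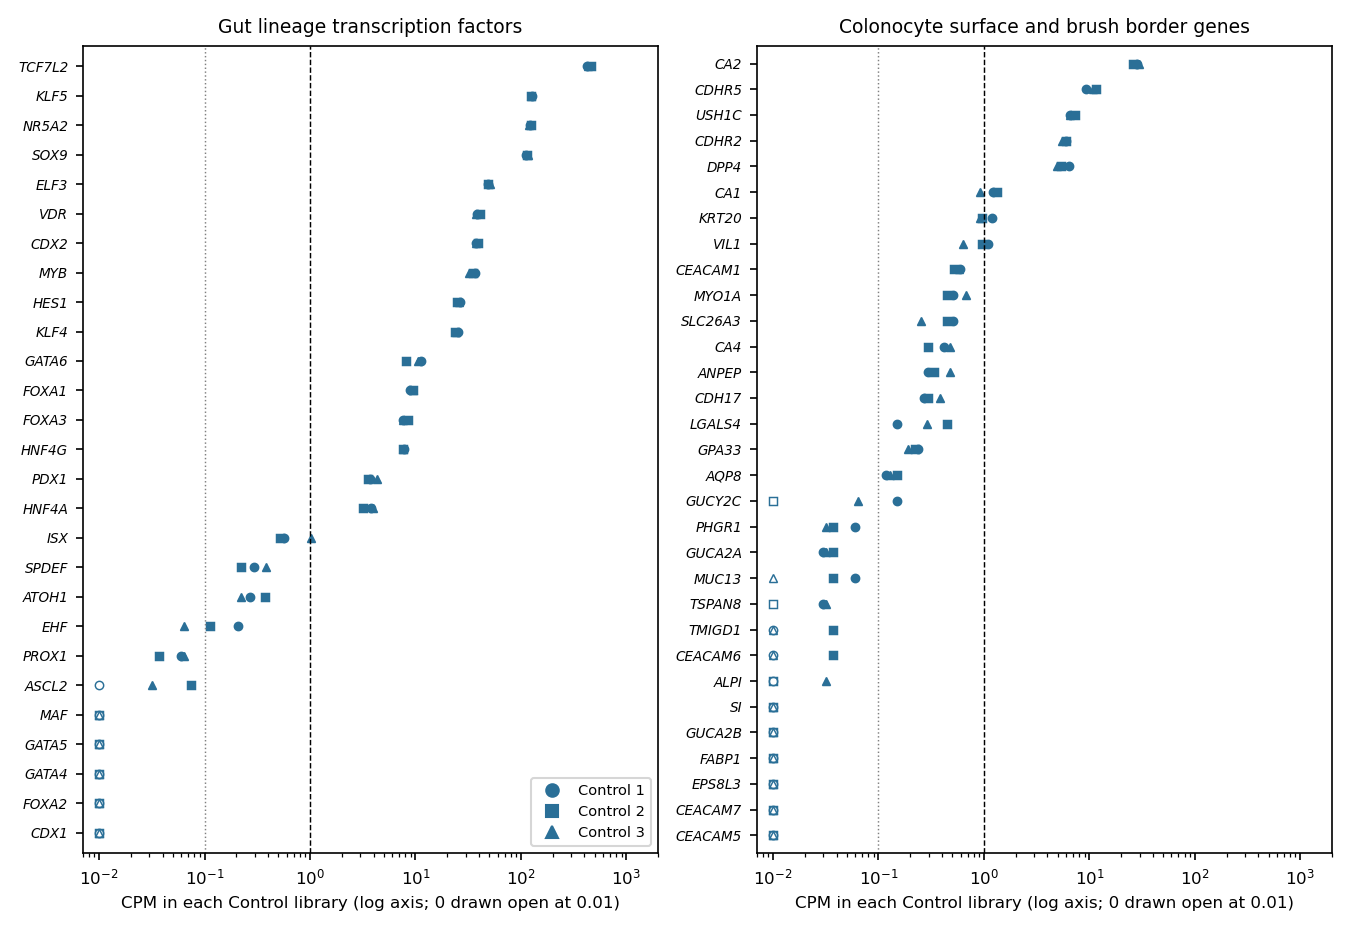
CPM of gut transcription factors (left) and colonocyte surface or brush border genes (right) in the 3 Control libraries, on a log axis; open symbols at 0.01 are counts of 0, and the dotted and dashed lines mark 0.1 and 1 CPM. Most transcription factors lie right of 1 CPM, whereas 5 of 31 colonocyte genes lie right of it in every library.

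The surface and brush border genes of colonocytes were mostly missing. Of 31 such genes 5 were expressed, none high, and 13 absent (41.9%, against 27.6% of all symbols and 20.4% of protein-coding genes), with a median of 0.217 CPM. With a limit of 0.5 CPM instead of 1 CPM, 9 were expressed. CEACAM5 (GRCh38 chr19:41708585-41729798, plus strand) had no count in 91.9 M pooled Control counts, and CEACAM7, FABP1, the fatty acid carrier of enterocytes, the disaccharidase SI, GUCA2B and EPS8L3 likewise had none. CEACAM6 had 1 count, ALPI 1, TMIGD1 1, TSPAN8 2, MUC13 3, GUCA2A 3 and PHGR1 4 over the 3 libraries. VIL1, which encodes villin, was at 1.10, 0.966 and 0.639 CPM. CDH17, the liver-intestine cadherin, was at 0.267, 0.297 and 0.383 CPM, and LGALS4, the intestinal galectin, at 0.149, 0.446 and 0.287 CPM. The 5 expressed members were CA2, a carbonic anhydrase, at 28.3, 26.1 and 29.3 CPM, the brush border protocadherin CDHR5 at 9.39, 11.6 and 10.9 CPM, its partner CDHR2 at 5.86 ± 0.267 CPM, their scaffold USH1C at 6.79 ± 0.461 CPM, and the peptidase DPP4 at 5.53 ± 0.753 CPM.

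For goblet and Paneth cells, 2 of 19 genes (10.5%) were expressed and 12 (63.2%) were absent, with a median of 0.0230 CPM. Among protein-coding genes the shares were 66.3% and 20.4%. FCGBP, a mucus-associated protein of goblet cells, was at 14.9, 13.6 and 14.6 CPM and MUC5B at 1.32 ± 0.147 CPM. MUC2 had 6 counts over the 3 libraries, and the trefoil genes TFF1, TFF2 and TFF3 had none. Of 17 mucin genes 6 were expressed, among them MUC3A, a membrane mucin of intestine, at 17.6, 18.6 and 17.6 CPM. Of 17 enteroendocrine genes 3 were expressed and 9 absent; the expressed ones were the granins SCG2 (6.36 ± 0.535 CPM) and CHGA (2.67 ± 0.314 CPM) and the vesicle protein SYP (2.02 ± 0.152 CPM), while the specifying factors NEUROG3 and INSM1 had no count.

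CDX2 thus went with the label of a colorectal line, while 7 of the 30 gut factors (23.3%), CDX1 among them, were absent. That share lay between those of protein-coding genes (20.4%) and of all symbols (27.6%), so nothing about the label is read from it. The epithelial genes are those of a general programme and do not set colon apart from other epithelia. The lack of CEACAM5 and the small amount of VIL1 went against the label, since HT29 cells are known to express both. The cells are therefore referred to below by their group label only. Sequence variants were not analysed here, and the cause of the missing markers was not tested.

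Of 31 stem cell and WNT target genes 19 (61.3%) were expressed, 8 of them high, and 7 (22.6%) were absent, near the shares of all protein-coding genes (66.3% and 20.4%), with a median of 9.01 CPM. MYC, a growth factor-responsive transcription factor, was at 623, 619 and 617 CPM, and the cyclin CCND1 at 694, 723 and 712 CPM. RNF43, a ubiquitin ligase that removes WNT receptors, was at 303, 314 and 296 CPM, and AXIN2, a feedback inhibitor, at 53.6, 59.3 and 54.5 CPM. DKK1, a secreted WNT antagonist, was at 587, 554 and 595 CPM, and BMP4 at 536, 546 and 543 CPM. All of these are genes that WNT signalling can induce, and none came near the floor. LGR5, the stem cell receptor, was at 0.386, 0.371 and 0.511 CPM, whereas its paralogue LGR4 had 34.6 ± 2.23 CPM. LEF1 had 4 counts over the 3 libraries, and SMOC2, OLFM4 and the secreted antagonists WIF1 and SFRP2 had none.

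The HOX genes, whose collinear clusters record position along the body axis, differed between clusters in the share expressed. All 11 HOXA genes, 8 of 10 HOXB (80.0%), 7 of 9 HOXC (77.8%) and 2 of 9 HOXD genes (22.2%) were expressed, against 66.3% of protein-coding genes. For HOXB and HOXC the shares lay not far from that background. HOXB7 was the most abundant per length at 105 ± 6.86 TPM (35.6, 39.5 and 35.6 CPM), followed by HOXA9 at 67.2 ± 1.48 TPM (45.7, 47.8 and 46.7 CPM) and HOXB9 at 57.0 ± 1.51 TPM. HOXB6 (50.01 ± 0.823 TPM), HOXA5 (47.6 ± 3.64 TPM) and HOXC9 (47.4 ± 3.28 TPM) came next and did not differ beyond their spread. The most posterior genes HOXB13, HOXA13 and HOXC13, of which HOXB13 is a factor of hindgut and prostate, had 17.6 ± 0.983, 10.2 ± 0.589 and 10.3 ± 0.140 TPM, while HOXD13 was at 0.0297, 0.111 and 0.0319 CPM. In the HOXD cluster the expressed members were HOXD8 (12.5 ± 0.124 CPM) and HOXD4 (1.40 ± 0.336 CPM).

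**Figure D3:**
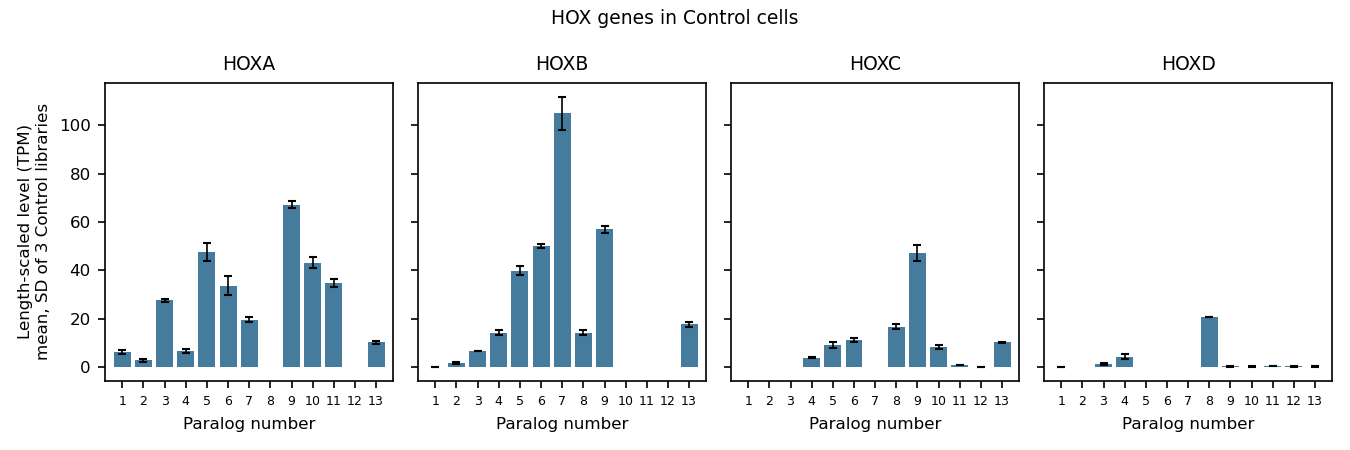
Length-scaled level (TPM) of the HOX genes in the 3 Control libraries, by cluster and paralog number; bars are means and error bars SD. HOXB7 stands highest at 105 TPM, and of the HOXD cluster HOXD8 has the tallest bar at 20.7 TPM.

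Other families of lineage factors gave a mixed picture, to be set beside the 66.3% of protein-coding genes that were expressed. SOX4, a factor common in epithelial tumours, was at 665, 670.5 and 671 CPM, and 9 of 19 SOX genes were expressed. Among nuclear receptors 31 of 43 were expressed, including the orphan receptors NR2F1 (162 ± 2.75 CPM) and NR2F2 (110.1 ± 0.758 CPM), while the progesterone receptor PGR was absent. Of 9 PAX genes 4 were expressed: PAX8, at 21.2, 22.8 and 21.6 CPM, and PAX2, at 17.5, 17.8 and 18.0 CPM, are best known from kidney, and PAX9 (11.2 ± 0.108 CPM) and PAX6 (3.50 ± 0.0357 CPM) from pharynx and from eye and pancreas. GATA2, a blood and endothelial factor, was at 18.5 ± 0.459 CPM, and NKX6-1, a factor of pancreatic islets, at 21.9 ± 0.591 CPM.

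Markers of other cell types did not appear as complete programmes, and neither did those of colonocytes (5 of 31 expressed, 16.1%). The expressed shares were 3 of 16 for leukocytes, 4 of 12 for fibroblasts, 3 of 10 for endothelium, 1 of 11 for squamous epithelium, 2 of 15 for hepatocytes, 3 of 12 for kidney, 6 of 16 for neurons, 4 of 7 for melanocytes, 2 of 10 for muscle, 4 of 13 for lung, prostate, breast and thyroid, and 1 of 9 for pluripotent cells, against 55.4% of all symbols and 66.3% of protein-coding genes. Summed over the lists, the 3 libraries held 26.1 to 27.6 CPM of leukocyte markers, 32.2 to 36.8 CPM of fibroblast markers and 11.0 to 12.4 CPM of endothelial markers. The leukocyte antigen PTPRC was at 0.0891, 0.149 and 0.0639 CPM, the fibroblast collagens COL1A2 and COL3A1 had 0 and 1 counts over the 3 libraries, and ERG, an endothelial factor, had 1. The expressed leukocyte members were the lysosomal protein CD68 (17.6 ± 0.526 CPM), CD4 (5.62 ± 0.166 CPM) and CD8A (1.24 ± 0.126 CPM). Single members of other lists were well expressed: the urea cycle enzyme CPS1 at 71.9, 72.6 and 68.5 CPM, neuronal tubulin TUBB3 at 156, 149 and 158 CPM, the synaptic calcium sensor SYT1 at 70.9, 69.1 and 67.6 CPM, and cardiac troponin TNNI3 at 23.4, 25.4 and 24.2 CPM. The hepatocyte products ALB, APOB and TTR were absent beside CPS1.

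Genes of the mesenchymal state were partly present. Of 16 members 7 were expressed and 3 absent, with a median of 0.601 CPM. Among protein-coding genes 66.3% were expressed and 20.4% absent. Without Control replicate 2, 5 members counted as absent. VIM, the mesenchymal intermediate filament, was at 0.654, 0.854 and 0.766 CPM, the N-cadherin gene CDH2 was at 0.0691 CPM on average, and CDH11 had no count. FN1, a matrix glycoprotein, was at 43.8, 45.0 and 44.1 CPM, the receptor AXL at 33.7, 37.0 and 34.0 CPM, and the repressors SNAI1 and ZEB1 at 14.4 ± 1.53 and 4.58 ± 0.0899 CPM.

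Among surface proteins used as drug or antibody targets, 32 of 40 (80.0%) were expressed, against 66.3% of protein-coding genes. High members numbered 11, and the median was 39.1 CPM. SLC7A5, an amino acid transporter, was at 1546, 1541 and 1587 CPM, and its heavy chain SLC3A2 at 339, 322 and 350.1 CPM. BSG, a chaperone of lactate transporters, had 515 ± 11.7 CPM and the transferrin receptor TFRC 458 ± 21.3 CPM. The checkpoint ligands CD276 (86.6 ± 3.29 CPM), CD47 (39.8 ± 1.88 CPM) and CD274, which encodes PD-L1 (4.34, 4.12 and 4.12 CPM), were expressed, while FOLR1 (1.08 CPM) and PDCD1LG2 (0.712 CPM) were low. Of targets pursued in colorectal tumours, CEACAM5 and CEACAM6 were absent, GUCY2C was at 0.149, 0 and 0.0639 CPM, and GPA33 at 0.238, 0.223 and 0.192 CPM. MSLN, a mesothelial antigen, was at 35.4, 41.2 and 38.6 CPM.

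Of 35 receptor tyrosine kinases 24 (68.6%) were expressed, near the 66.3% of protein-coding genes. High members numbered 8, and the median was 29.6 CPM. EGFR, the receptor of the ligands EREG and AREG, was at 220, 223 and 210 CPM, ERBB2 at 144, 148 and 146 CPM and ERBB3 at 74.3, 73.2 and 73.8 CPM. MET, the receptor of HGF, was at 187, 184 and 181 CPM. Per length, EPHA2, an ephrin receptor, led these receptors at 218 TPM, above EPHB4 (129 TPM), DDR1 (115 TPM) and MET (114 TPM). FGFR4, the receptor of FGF19, had 64.7 ± 1.66 CPM. ERBB4, KIT, PDGFRA, NTRK2, NTRK3 and ROS1 were absent. Of 35 genes for integrins and for laminins, the basement membrane proteins that some of them bind, 26 (74.3%, against 66.3% of protein-coding genes) were expressed and 1 was absent (3 without Control replicate 1). The integrin chain ITGA3 stood at 467 ± 7.43 CPM and its partner ITGB1 at 296 ± 5.13 CPM, and ITGB4 of hemidesmosomes at 404 ± 4.32 CPM.

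Of 66 cytokines, chemokines and growth factors 24 (36.4%, against 66.3% of protein-coding genes) were expressed, 4 of them high. Below the limit for absent genes were 19 (28.8%, against 20.4%), MIF among them, and the median was 0.622 CPM. The high members were EREG, MDK, VEGFA and TGFB1. EREG, an EGFR ligand, was at 488, 461 and 477 CPM, and AREG and TGFA, ligands of the same receptor, at 52.1 ± 1.57 and 46.2 ± 1.26 CPM. MDK, a heparin-binding growth factor, was at 216, 234.5 and 226 CPM, VEGFA at 126, 136 and 131 CPM, TGFB1 at 106.5, 106 and 111 CPM, and the stress cytokine GDF15 at 101.5, 96.5 and 104 CPM. FGF19, the gut hormone that restrains bile acid synthesis, had 54.7 ± 0.908 CPM. All of these were expressed in every library with little spread. Per length MDK (447 TPM) stood above EREG (362 TPM) and GDF15 (210 TPM). Of the inflammatory chemokines CXCL8 was at 1.19, 1.67 and 1.88 CPM, CXCL1 at 1.04, 1.04 and 0.990 CPM, and CXCL10, CCL2 and CCL20 were absent, as were IL6 and TNF with 1 count each over the 3 libraries. CXCL16 (66.8 ± 1.41 CPM) and IL18 (20.01 ± 1.61 CPM) were exceptions. MIF, which most cells transcribe, was listed at 0 in all 9 libraries; 62.0% of its exon bases overlap another annotated gene, so the 0 is not read here as absence.

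Of 41 cytokine receptors 31 (75.6%) were expressed, 2 of them high, and 6 (14.6%) were absent, with a median of 20.4 CPM. Among protein-coding genes the shares were 66.3% and 20.4%. LTBR, the lymphotoxin receptor, was at 193, 198 and 204 CPM, and the TNF receptor TNFRSF1A at 93.2, 91.9 and 94.8 CPM. The chains of the interferon receptors IFNAR1 (53.1 ± 1.57 CPM), IFNAR2 (21.9 ± 0.992 CPM), IFNGR1 (24.3 ± 0.387 CPM) and IFNGR2 (50.8 ± 1.90 CPM) were all expressed, as were TGFBR1 (62.1 ± 2.72 CPM) and TGFBR2 (23.6 ± 0.497 CPM). For IL6, whose own transcript was absent, the signalling chain IL6ST was at 74.3, 69.7 and 66.8 CPM and IL6R at 5.79, 5.27 and 7.60 CPM. The leukocyte receptor IL2RG had no count.

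**Figure D4:**
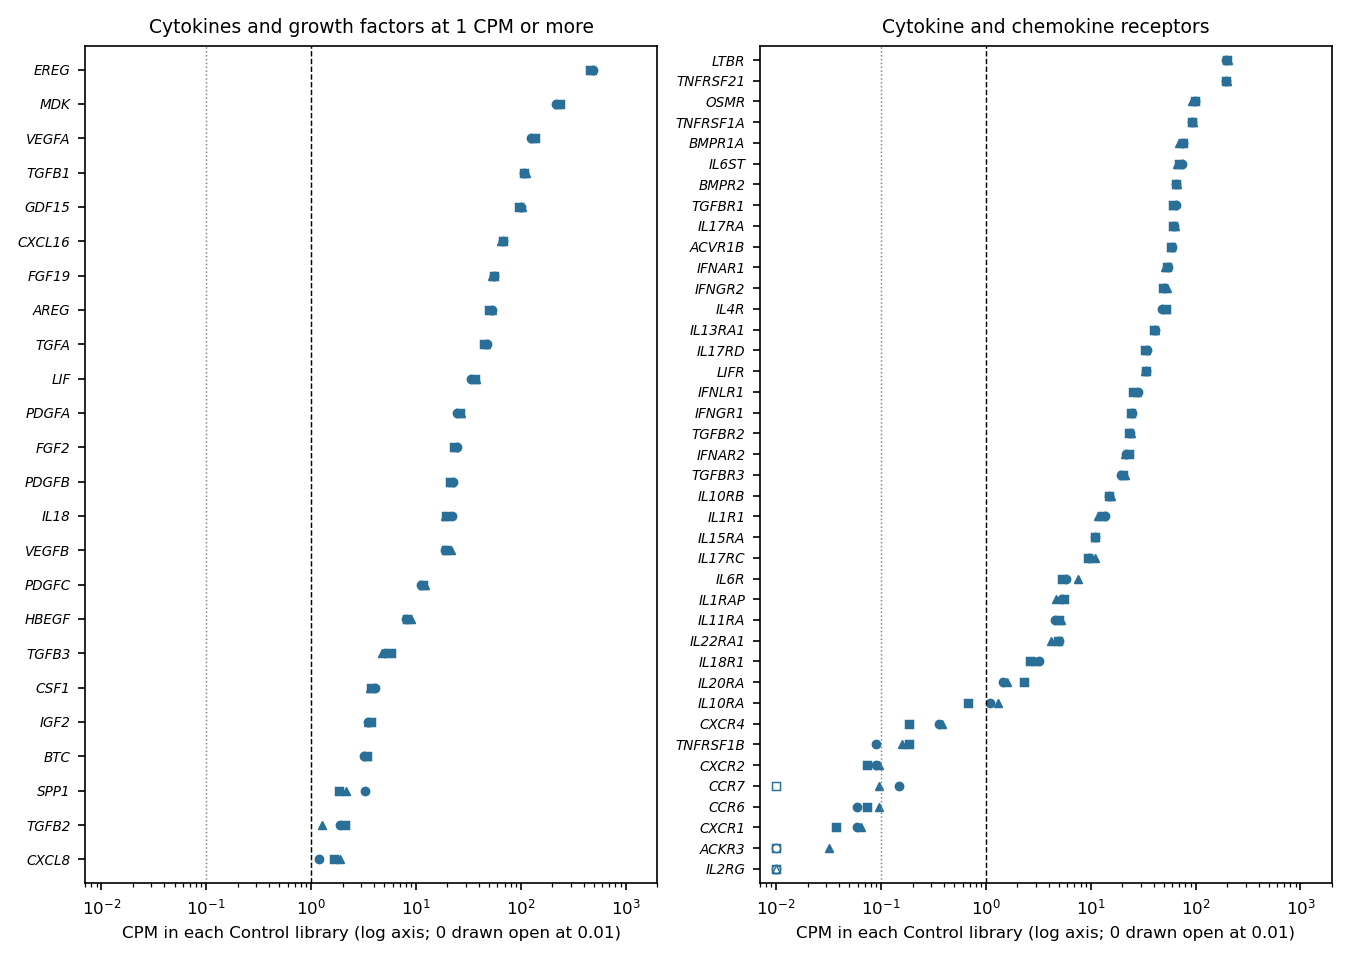
CPM in each of the 3 Control libraries of the 24 expressed cytokines and growth factors (left) and of cytokine and chemokine receptors (right), on a log axis; open symbols at 0.01 are counts of 0. EREG lies highest among ligands in CPM, although MDK stood above it per length, and 31 receptors lie at or right of 1 CPM in every library.

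Of 30 innate sensing genes 16 (53.3%) were expressed and 10 (33.3%) absent, against 55.4% and 27.6% of all symbols and 66.3% and 20.4% of protein-coding genes, with a median of 3.66 CPM. MAVS, the mitochondrial adaptor of RNA sensors, was at 428, 445 and 433 CPM, and the RNA sensors DDX58, which encodes RIG-I, and IFIH1 at 20.3 ± 1.11 and 18.7 ± 0.456 CPM. STING1 was at 23.9, 21.7 and 21.9 CPM, while CGAS, the DNA sensor that produces its ligand, had 5 counts over the 3 libraries. TLR2, TLR4, AIM2 and CASP1 had none. For antigen presentation 18 of 23 genes were expressed: B2M, the light chain of class I molecules, was at 126, 116 and 126 CPM, and the peptide transporter subunits TAP1 and TAP2 at 42.0 ± 1.98 and 85.1 ± 1.16 CPM. Of the 36 proteasome subunits 33 were expressed, 19 of them high. The constitutive catalytic subunit PSMB5 was at 120, 112 and 118 CPM, while its inducible counterpart PSMB8 was at 0.0594, 0.297 and 0.128 CPM and PSMB9 at 1.66, 1.52 and 1.56 CPM.

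Genes of proliferation and genome maintenance were expressed almost without exception, against 66.3% of protein-coding genes. Of 29 cell cycle genes 28 were expressed, 11 of them high; MKI67, a proliferation antigen, was at 1496, 1625 and 1467 CPM. CCND2 was the absent member, with 3 counts over the 3 libraries. The inhibitor CDKN2A, often silenced in colorectal tumours, was at 64.3, 59.4 and 66.1 CPM. All 19 mismatch repair and tumour suppressor genes were expressed, 8 of them high, with a median of 70.8 CPM. All 18 genes of the DNA methylation machinery were expressed, among them UHRF1 (245 ± 7.96 CPM), which guides DNMT1 to replicating DNA, DNMT3A (35.9 ± 1.04 CPM) and the demethylation enzyme TET3 (215 ± 5.04 CPM). TET2 had 80.0 ± 1.88 CPM and TET1 29.8 ± 0.597 CPM.

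Of 40 genes reported as methylated at the promoter in colorectal cancer, 20 were expressed and 13 absent (32.5%, against 27.6% of all symbols and 20.4% of protein-coding genes), with a median of 1.20 CPM. CHFR, a mitotic checkpoint ligase, WIF1, a WNT antagonist, the heparan sulphate proteoglycan SDC2, the lymphoid factor IKZF1, CRABP1, SFRP2, GATA4 and GATA5 had no count in Control. SEPTIN9, whose methylated promoter is a blood test for this cancer, was high at 464.5, 485 and 478 CPM, and RUNX3 and RASSF1 were expressed. Counts are summed per gene, here and for CDKN2A above, so they do not show which promoter was in use. Cancer-testis antigens, which DNA methylation is known to silence in somatic cells, were mostly absent (13 of 20). Of the 4 expressed, MAGEA2 was at 1.30 CPM on average; the others were MAGEB2 at 138, 138 and 134 CPM, MAGEA3 at 65.2, 56.1 and 64.3 CPM and PRAME at 56.4, 54.5 and 54.5 CPM. MAGEA6 (0.229 CPM), MAGEA12 and BRDT were low. MAGEA3 and MAGEA6 are near-identical, so the division of reads between them is uncertain.

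Promoters were compared by their CG dinucleotides, because some absent genes are of the CpG-rich kind and others are not. The 250 bases before the first listed start of a gene were taken from RefSeq (GRCh38.p14) for 15220 protein-coding genes; the spans of whole genes given elsewhere are from GENCODE 29, whose starts can differ, so a promoter window may reach into such a span, as for CEACAM5. A promoter was called CpG-rich at a GC content of at least 55% and an observed to expected CG ratio of at least 0.6. The motif CG reads the same on both strands and occurred at least once in 96.9% of the promoters. Below, 1 expressed lineage factor, 1 absent colonocyte gene and 2 absent genes of the methylated list are shown 5′ to 3′ on the strand of the gene, with each CG in capitals.
CDX2 (chr13:27969316-27969565, minus strand): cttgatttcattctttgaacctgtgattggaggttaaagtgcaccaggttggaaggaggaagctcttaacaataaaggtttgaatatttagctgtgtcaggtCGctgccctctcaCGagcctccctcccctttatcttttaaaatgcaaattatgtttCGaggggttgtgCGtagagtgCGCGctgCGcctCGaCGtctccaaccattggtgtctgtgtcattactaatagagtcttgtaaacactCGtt
CEACAM5 (chr19:41708376-41708625, plus strand): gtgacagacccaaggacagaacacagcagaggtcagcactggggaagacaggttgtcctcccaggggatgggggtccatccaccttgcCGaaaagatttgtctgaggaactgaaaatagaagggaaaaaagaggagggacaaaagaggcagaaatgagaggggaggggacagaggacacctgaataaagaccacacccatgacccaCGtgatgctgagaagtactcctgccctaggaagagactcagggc
CHFR (chr12:132887606-132887855, minus strand): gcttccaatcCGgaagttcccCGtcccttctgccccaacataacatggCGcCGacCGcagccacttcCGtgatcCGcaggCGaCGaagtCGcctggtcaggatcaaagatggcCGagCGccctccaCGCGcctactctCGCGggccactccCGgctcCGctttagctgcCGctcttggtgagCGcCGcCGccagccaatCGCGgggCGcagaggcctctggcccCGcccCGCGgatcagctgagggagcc
WIF1 (chr12:65121306-65121555, minus strand): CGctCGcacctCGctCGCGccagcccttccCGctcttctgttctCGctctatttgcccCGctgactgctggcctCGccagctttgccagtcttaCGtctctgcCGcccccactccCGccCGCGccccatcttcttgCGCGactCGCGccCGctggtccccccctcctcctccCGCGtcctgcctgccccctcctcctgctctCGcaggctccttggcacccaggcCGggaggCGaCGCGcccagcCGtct
CDX2 holds 10 CG sites (45.2% GC), CEACAM5 2 (53.2% GC), CHFR 28 (68.8% GC) and WIF1 27 (71.6% GC), so the silent genes CEACAM5 and CHFR lie at opposite ends.

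CpG-rich promoters made up 57.4% of all 15220 promoters, 81.0% of those of high genes (n = 2130), 71.9% of those of expressed genes (n = 10353), 31.8% of those of low genes (n = 1891) and 23.2% of those of absent genes (n = 2976). The median number of CG sites was 21 for expressed and 4 for absent genes. Among absent members of the methylated list with a promoter in the table, 7 of 8 were CpG-rich (WIF1, NEUROG1, CRABP1, CHFR, IKZF1, BCAT1 and UNC5C). Of the expressed members 10 of 14 were CpG-rich as well. None of the 12 absent colonocyte genes with a promoter was. These counts describe sequence only; methylation was not measured in these libraries, and a start other than the first listed may serve a gene in these cells.

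**Figure D5:**
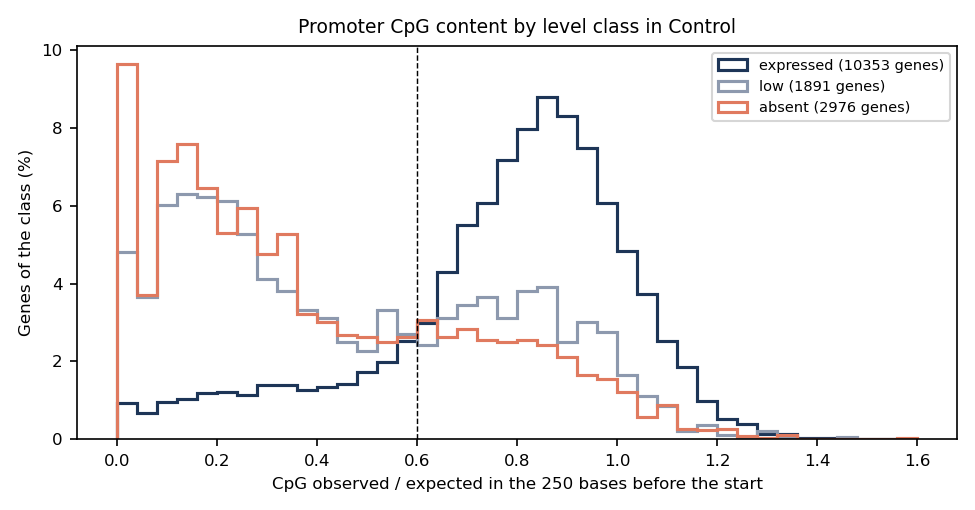
Distribution of the observed to expected CG ratio in the 250 bases before the start (x axis) for expressed, low and absent protein-coding genes in Control; the y axis is the percentage of genes of the class and the dashed line marks 0.6. The curve of expressed genes peaks right of the line and that of absent genes left of it, and the low genes show both peaks.

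The knockdown libraries show how far this baseline held when a DNA methyltransferase was lowered. Each knockdown was compared with the same 3 Control libraries by edgeR's quasi-likelihood test with Benjamini-Hochberg adjustment over 16660 tested symbols, called at an adjusted p below 0.05. Both comparisons share these Control libraries, so a change seen in both knockdowns is not 2 independent results. Nothing in the labels says that libraries of a group came from separate cultures, so the p-values measure only the spread between these libraries. With DNMT1 knockdown 3499 symbols (21.0%) were higher and 3457 (20.8%) lower, 282 (1.69%) higher and 43 (0.258%) lower by at least 2-fold. With DNMT3B knockdown 3850 (23.1%) were higher and 4099 (24.6%) lower, 362 (2.17%) and 59 (0.354%) by at least 2-fold; without a filter on low counts the numbers were 72 lower with DNMT1 knockdown and 589 higher with DNMT3B knockdown. DNMT1 itself fell 1.82-fold with its knockdown (adjusted p = 2.83e-20, edgeR) and DNMT3B 2.00-fold with its own (adjusted p = 1.49e-17). In the other knockdown DNMT1 was at 492, 484 and 489 CPM (1.07-fold higher, adjusted p = 0.0171, edgeR; 0.0804 without Control replicate 1) and DNMT3B at 64.2, 64.1 and 64.7 CPM (adjusted p = 0.22, edgeR). Of the 742 genes in the 32 lists, 502 were tested; 131 were higher and 125 lower with DNMT1 knockdown, 18 and 3 of them by at least 2-fold (3 to 6 lower with 1 library left out, 5 without any 1 Control library and 6 without DNMT1 knockdown replicate 3), and 141 and 168 with DNMT3B knockdown, 26 and 5 of them by at least 2-fold. The median log2 fold change of these members was 0.00332 and -0.00599, compared with -0.00246 and 0.00229 over all tested symbols. A gene too low in Control for the filter could enter only through a knockdown group, and could hardly be called lower. Among such list members were EHF, SPARC, GSTA1 and TNFRSF1B, with Control means of 0.128, 0.176, 0.104 and 0.145 CPM. Nothing is therefore read from the larger number of higher than lower genes at 2-fold, in the lists or over all symbols. Summed leukocyte markers were at 26.6 to 28.4 CPM with DNMT1 knockdown and 37.6 to 44.4 CPM with DNMT3B knockdown, against 26.1 to 27.6 CPM in Control. Of the 6 leukocyte markers tested, 1 was called higher with DNMT3B knockdown and 0 lower. It was the lysosomal gene CD68 (1.87-fold, adjusted p = 2.78e-14, edgeR). Summed fibroblast markers were at 34.8 to 40.2 and 44.3 to 48.3 CPM, against 32.2 to 36.8 CPM. The part of both lists in the results below was not tested.

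Gut genes that were absent in Control remained below the limit for expressed genes. No absent gut transcription factor or colonocyte gene became expressed in either knockdown. Expressed colonocyte genes numbered 7 with DNMT1 knockdown and 8 with DNMT3B knockdown, against 5 in Control. Over all symbols 14446 and 14513 were expressed in the knockdowns, against 14339 in Control. Of all 7135 symbols absent in Control, 4 became expressed with DNMT1 knockdown (AOAH, CLSTN2-AS1, EDA2R and MYH13) and none with DNMT3B knockdown. Nothing particular to gut genes is therefore read from their staying below the limit. CDX2 was at 39.9, 40.4 and 40.3 CPM with DNMT1 knockdown (1.05-fold, adjusted p = 0.218, edgeR) and at 42.6, 38.1 and 39.8 CPM with DNMT3B knockdown (1.05-fold, adjusted p = 0.191, edgeR), so no difference from Control was shown. CEACAM5 had no count in the DNMT1 knockdown and was at 0, 0.0533 and 0.0385 CPM in the DNMT3B knockdown.

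Some gut factors changed. The first of them, EHF, lay near the counting floor in Control and passed the filter only through the knockdown groups. It could therefore be called only as higher, and its fold changes are rough. EHF went from 0.208, 0.111 and 0.0639 CPM in Control to 3.10, 2.82 and 3.91 CPM with DNMT1 knockdown (24.1-fold; log2 fold change 4.59 ± 0.275, SE; adjusted p = 5.71e-15, edgeR) and to 2.18, 1.81 and 2.00 CPM with DNMT3B knockdown (14.8-fold, adjusted p = 7.55e-12). KLF4, a factor of differentiated colonocytes, rose from 23.8 to 25.5 CPM in Control to 54.9 to 56.0 CPM with DNMT1 knockdown (2.24-fold, adjusted p = 2.59e-19, edgeR) and to 45.4 to 50.01 CPM with DNMT3B knockdown (1.91-fold, adjusted p = 2.13e-16). The crypt factor NR5A2, high in Control at 120.2 to 124 CPM, fell to 69.25 to 70.6 CPM (1.75-fold lower, adjusted p = 1.96e-18, edgeR) and to 68.1 to 72.1 CPM (1.75-fold lower, adjusted p = 2.87e-18). In none of these comparisons did the libraries of the groups overlap.

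Of the surface and secreted genes, NRP1, a receptor for semaphorins and VEGF, was at 133, 132 and 128 CPM in Control, and fell to 31.9, 32.3 and 31.8 CPM with DNMT1 knockdown (4.12-fold lower, adjusted p = 2.26e-27, edgeR) and to 29.4, 30.3 and 27.0 CPM with DNMT3B knockdown (4.58-fold lower, adjusted p = 2.08e-27). TGFB2, barely expressed in Control at 1.87, 2.12 and 1.28 CPM, rose to 33.5, 33.2 and 34.0 CPM (19.1-fold, adjusted p = 3.42e-27, edgeR) and to 17.5, 17.85 and 17.9 CPM (10.1-fold, adjusted p = 1.98e-22). SLC7A11, the cystine carrier, fell from 193.5, 187 and 186 CPM to 92.2, 87.0 and 88.0 CPM with DNMT1 knockdown (2.13-fold lower, adjusted p = 5.66e-22, edgeR) and to 159, 163 and 160.3 CPM with DNMT3B knockdown (1.18-fold lower, adjusted p = 6.26e-07). CDKN2A was at 59.6, 67.0 and 60.3 CPM with DNMT1 knockdown (1.02-fold lower, adjusted p = 0.604, edgeR) and fell to 29.3, 28.0 and 29.9 CPM with DNMT3B knockdown (2.19-fold lower, adjusted p = 5.90e-18). Of 36 proteasome subunits 33 were tested: 28 were called lower (background 20.8%) and 1 higher with DNMT1 knockdown, and 26 lower (background 24.6%) and 1 higher with DNMT3B knockdown, with a median log2 fold change of -0.175 and -0.168. Of 55 keratins 21 were tested, and 14 were higher and 1 lower with DNMT1 knockdown and 15 higher with DNMT3B knockdown. Members with little expression could be tested only where some group was high enough, so nothing is read from these counts against the 21.0% and 23.1% of all tested symbols that were higher. One example was the hair keratin KRT36 at 0.798 to 0.966 CPM in Control and 2.03 to 2.96 CPM with DNMT1 knockdown (2.70-fold, adjusted p = 3.63e-07, edgeR).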

How the data were processed

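The authors deposited unscaled read counts for 25886 gene symbols in 9 libraries. Per the labels' protocols, RNA was depleted of rRNA before library preparation. Per the submitters' processing notes, the tools were STAR, featureCounts and DESeq2 and the build GRCh38 (hg38); for versions, annotation and strand use: not given in the sources used here. Total counts were 18.8 to 33.7 M per library. No mitochondrially encoded symbol was in the table.

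From the counts, CPM used column totals, and TPM used union exon lengths of GENCODE 29, in which 24293 of 25886 symbols (93.9%) were found. The 3 Control columns were described with pandas 2.3.3 and numpy 2.4.6, with no test, by 32 gene lists and 20 families found by symbol. Promoter sequence was credited to RefSeq; 18785 symbols matched. Knockdowns were compared with Control in edgeR 4.0.16 (R 4.3.3): filterByExpr by group, TMM, quasi-likelihood fit over all 9 libraries (6 residual degrees of freedom), Benjamini-Hochberg adjustment. The script was tested on simulated data. Named genes were list or family members (highest, absent or defining), the 20 highest by CPM and by TPM, the 5 largest CVs at a mean of at least 10 CPM, the targeted genes, and list members changed at least 2-fold; others named (symbols absent in Control and expressed in a knockdown, NR5A2, CDX2 and CEACAM5 in the knockdowns) were chosen after their values were seen. Genes and lists were chosen with earlier results of these data known.

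Alternatives were limits of 0.5 and 2 CPM, TMM-scaled totals, totals without structural RNAs and histones, thinning to the smallest total, longest transcript lengths, DESeq2 1.42.0, its size factors, no filter, only the 2 groups compared, a block for the replicate number, and each library left out in turn. Same-numbered libraries did not deviate together (correlations of -0.0488 to 0.0425), so the numbers were not taken as pairs. Some list members are counted in their lists but not reported here by name or drawn.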

Additional observations from a re-analysis of the deposited data

How the results depend on the processing

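No result reversed, and of the alternatives run 615 values that answer a comparison stayed within 1.5 times and 19 moved. Of the values for single genes, 759 kept the outcome of the main test and 8 lost their call. With 0.5 CPM as the limit for expressed genes, the expressed members were 9 for colonocyte genes (5 at 1 CPM), 2 for squamous markers (1) and 4 for hepatocyte markers (2). With 2 CPM they were 1 for goblet and Paneth genes (2), 1 for endothelium (3), 1 for hepatocytes (2), 2 for lung, prostate, breast and thyroid (4) and 0 for pluripotency (1). Thinned to the smallest total, 1 antigen presentation gene was absent instead of 2. Leaving out each library in turn gave 0 to 1 absent epithelial genes, 3 to 5 mesenchymal, 1 to 2 endothelial and 1 to 3 integrin and laminin genes, the changes coming without Control replicate 1 or 2, and 3 to 6 list members lower by at least 2-fold with DNMT1 knockdown (5 without any 1 Control library and 6 without DNMT1 knockdown replicate 3). Without a filter on low counts, 72 symbols were lower by at least 2-fold with DNMT1 knockdown and 589 higher with DNMT3B knockdown. DESeq2 called 2845 higher and 2873 lower with DNMT1 knockdown, and 3228 and 3478 with DNMT3B knockdown. With the replicate number as a block the calls were 3424 higher and 3372 lower with DNMT1 knockdown, and 3772 and 4017 with DNMT3B knockdown, while no library correlated enough with its own number to speak of pairing. At this depth a gene below 0.111 CPM cannot be told from 0 in each library. The causes were not tested.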
